A study of Mus with 12 samples.

Results

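The T cell identity and receptor signalling genes described here are 36 genes picked by name for what they encode, of the 25247 genes in the blood expression table. They comprise 7 parts of the antigen receptor and its CD3 complex, 7 coreceptors and costimulatory receptors, 6 other surface proteins of T cells, 2 cytokine receptor chains, 7 proximal signalling proteins and 7 transcription factors. All 36 had a row, and each had at least 1 count in all 12 libraries. They lie on 16 chromosomes, and some are neighbours, such as Cd3g, Cd3d and Cd3e on chromosome 9 (Cd3e at 44998740 to 45009622 on the minus strand), Trbc1 and Trbc2 on chromosome 6, and Cd28, Ctla4 and Icos on chromosome 1, where 114 kb and 62.1 kb separate them. Positions are those of the table, which names no genome build, and all 36 overlap the gene of the same symbol in the GRCm38.p6 annotation of RefSeq. In 15 of the 36 another annotated gene overlaps, and whether counting used the strand is not given in the sources used here.

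A T cell recognises a peptide held by an MHC molecule through its antigen receptor, whose own chains carry almost no signalling tail. The signal passes through the CD3 chains, which the kinase Lck phosphorylates and the kinase Zap70 then binds, and spreads from the scaffold Lat, while coreceptors and costimulatory receptors set how strongly the cell responds. T cells are a large part of blood lymphocytes, but most RNA of unfractionated blood comes from red cell precursors and reticulocytes.

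Blood was taken on day 30 from BALB/c mice that were females of 6 weeks at the start, with 4 groups of 3 libraries. Mice of the Solvent group received the acetone and olive oil vehicle. Mice of the DNCB group were sensitised on the skin with 1% dinitrochlorobenzene, a contact sensitiser, and challenged with 0.5%, as a model of atopic dermatitis, and both remaining groups had the same DNCB course. The scMSC group was also given human umbilical cord mesenchymal stem cells (MSCs), 2000000 per dose, in 100 µL under the skin, and the scivMSC group the same dose with 50 µL under the skin and 50 µL into the tail vein. The MSCs were human cells in mice with an intact immune system. No source used here ties a library to a single mouse, so p-values measure the spread between these libraries.

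Libraries held 52179764 to 65139421 estimated counts, of which haemoglobin transcripts took 78.4 to 89.0%, so that 5843407 to 12858063 counts were left for all other genes. Levels are given as FPKM, fragments per kilobase of transcript scaled to the depth of the library, a unit that takes gene length into account and so allows genes to be set side by side. Fold changes and adjusted p-values come from edgeR's quasi-likelihood test on the counts, scaled by library totals and adjusted by Benjamini-Hochberg over all 5527 genes with at least 1 FPKM in at least 3 libraries. Calling a gene needed a change of more than 2-fold together with an adjusted p under 0.05. Of the 36 genes, 30 entered this test and 6 (Ctla4, Themis, Ubash3a, Sh2d1a, Gata3 and Foxp3) were too low. Of those 30, 3 (Icos, Skap1 and Satb1) would not have entered without the Solvent libraries, so the filter favoured their falls from Solvent. The counts below include these 3, describe the genes that passed and are not counts over all 36.

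By FPKM the T cell genes were highest in Solvent and lowest in scivMSC, and after TMM scaling most were lowest in DNCB instead. Summed over the 36 genes, the level was 357, 220.1 and 217 FPKM in the Solvent libraries, 114, 114 and 86.9 in DNCB, 159.6, 106 and 155 in scMSC and 73.7, 34.5 and 57.3 in scivMSC. Solvent 1 stood above the other Solvent libraries, and scivMSC 2, which had the fewest counts outside haemoglobin, was the lowest of all. The mean FPKM ran Solvent, scMSC, DNCB, scivMSC from high to low in 32 of the 36 genes, an order found in 9.35% of all tested genes. Cd3d and Satb1 were higher in DNCB than in scMSC, Ctla4 was about level in DNCB and scivMSC, and Icos was highest in scMSC. With FPKM divided by the factors of TMM, a scaling that centres the bulk of genes, the order was Solvent, scMSC, scivMSC, DNCB in 27 of the 36 genes and in 8.92% of all tested genes, and Satb1 was the 1 gene lowest in scivMSC. In whole blood, fewer T cells and less of these RNAs per T cell cannot be told apart.

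**Figure D1:**
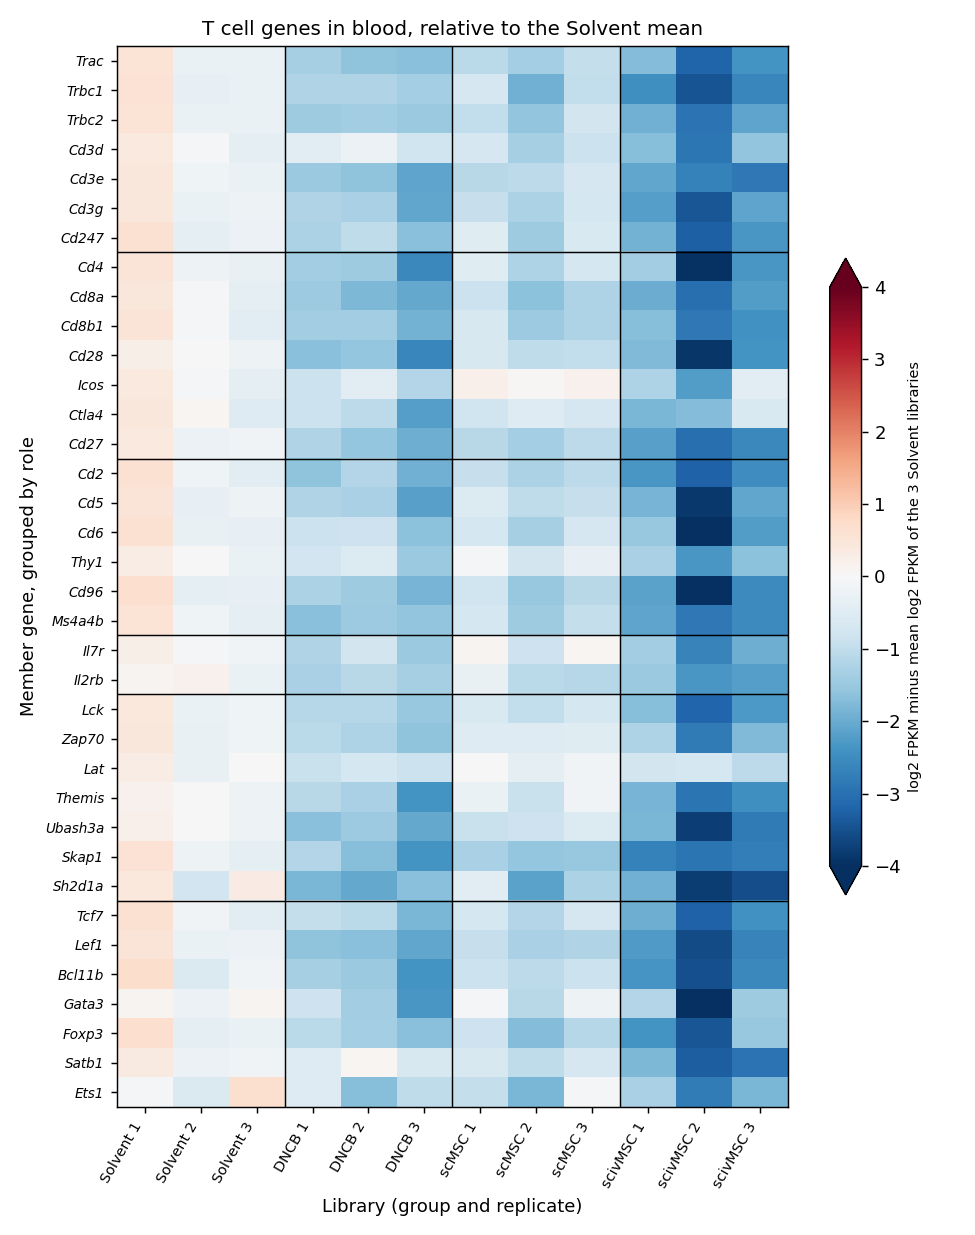
Heat map of the 36 T cell genes (rows, grouped by role) in the 12 libraries (columns), coloured by log2 FPKM minus the mean log2 FPKM of the 3 Solvent libraries. Blue covers nearly all of DNCB, scMSC and scivMSC, is palest in scMSC and is darkest in scivMSC 2, while Cd3d, Satb1, Icos and Lat are paler than their neighbours in some groups.

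The scale on which libraries are compared changes part of these results. As a share of counts outside haemoglobin, the 36 genes took 0.516, 0.458 and 0.443% in Solvent, 0.205, 0.165 and 0.152% in DNCB, 0.331, 0.254 and 0.333% in scMSC and 0.156, 0.0942 and 0.145% in scivMSC. On that share Solvent, scMSC and DNCB did not overlap, and DNCB and scivMSC did. Against library totals the median of all tested genes was itself shifted, by -0.63 (log2) in scMSC and by -1.53 in scivMSC against DNCB, and by 0.06 in DNCB against Solvent. The TMM scaling of edgeR brings those medians to 0.06, 0.04 and -0.09, and the counts of called genes below are given on both scales. On the library-total scale 8 erythroid genes had a median change between -0.08 and 0.23 in all 6 comparisons with none called. Haemoglobin genes are among these 8 and took most counts, so scaling by totals itself holds them near 0. Under TMM all 8 were called higher in scivMSC than in DNCB, as were 20.6% of all tested genes. These values do not show which scale is the better.

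DNCB against Solvent shows how the blood of sensitised and challenged mice differed from that of vehicle-treated mice. Of the 30 genes, 22 were called lower and none higher, against 4.87% of all tested genes called lower and 15.6% called higher. The median log2 fold change was -1.49 over the 30 genes and 0.06 over all tested genes. All 22 were also called lower under TMM, where 26 were called against 11.5% of tested genes, and with haemoglobin left out of the totals, where 25 were called against 10.6%. FPKM did not overlap between the groups in 33 of the 36 genes, with 16.5% of tested genes lower in the same way, and the exceptions were Cd3d, Satb1 and Ets1. Leaving out DNCB 3 brought the count to 11 and leaving out Solvent 1 brought it to 14.

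Markers of other blood cells moved between the same libraries. From Solvent to DNCB, 8 B cell genes went from a summed 50.0 to 154 FPKM to 13.5 to 38.5 with all 8 called lower, 9 NK cell genes went from 25.3 to 30.7 FPKM to 8.91 to 12.7 with 2 of 3 tested called lower, and 8 monocyte genes went from 11.2 to 26.4 FPKM to 41.4 to 68.8 with 3 of 7 tested called higher. All 10 neutrophil genes were called higher, from 219.8 to 445 FPKM in Solvent to 6975 to 10927 in DNCB, and no gene of these lists was at 0 in all 12 libraries. Their part in the fall of the T cell genes was not tested.

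Among the receptor genes, Cd3e, the epsilon chain of CD3, stood at 6.41, 4.15 and 3.86 FPKM in Solvent, 1.69, 1.55 and 1.10 in DNCB, 2.17, 2.25 and 2.96 in scMSC and 1.10, 0.718 and 0.639 in scivMSC. Every DNCB library lay below every Solvent library, and the fall had a log2 fold change of -1.73 ± 0.35 (SE) and an adjusted p of 0.00202. Trac, the constant region of the receptor's alpha chain, stood at 23.0, 13.02 and 13.1 FPKM in Solvent, 6.27, 5.20 and 4.90 in DNCB, 7.52, 6.18 and 8.23 in scMSC and 4.70, 1.70 and 3.01 in scivMSC. Its fall in DNCB (log2 fold change -1.58) was of like size to those of the beta chain constant genes Trbc1 (log2 fold change -1.31) and Trbc2 (log2 fold change -1.48), of Cd3g (log2 fold change -1.51) and of Cd247, the zeta chain (log2 fold change -1.35). Trbc1 and Trbc2 are near-identical copies whose reads the counting could have split either way.

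Cd3d, the delta chain of CD3, departed from the rest of its complex. It stood at 12.7, 9.31 and 7.47 FPKM in Solvent, 7.17, 8.07 and 5.52 in DNCB, 6.05, 3.86 and 5.26 in scMSC and 2.94, 1.29 and 3.20 in scivMSC. DNCB and Solvent overlapped, and the difference was not called, with a log2 fold change of -0.50 ± 0.37 (SE) and an adjusted p of 0.374. Cd3d, Cd3e and Cd3g lie side by side on chromosome 9, with 1.35 kb between Cd3g and Cd3d and 11.4 kb between Cd3d and Cd3e as the table gives their positions. The ratio of Cd3d to Cd3e FPKM was 1.97, 2.24 and 1.94 in Solvent, 4.25, 5.22 and 5.03 in DNCB, 2.78, 1.71 and 1.78 in scMSC and 2.67, 1.80 and 5.01 in scivMSC. It was thus higher in every DNCB library than in any Solvent or scMSC library, a contrast noticed in these values and therefore given without a test, while the ratio of Cd3g to Cd3e had group means between 1.44 and 1.67.

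The coreceptors fell in DNCB together. Cd4, which marks helper and regulatory T cells, stood at 10.7, 6.49 and 6.10 FPKM in Solvent, 2.84, 2.81 and 1.25 in DNCB, 5.35, 3.22 and 4.58 in scMSC and 2.89, 0.486 and 1.50 in scivMSC. Cd8a, a chain of the coreceptor of cytotoxic T cells, stood at 6.05, 4.23 and 3.43 FPKM in Solvent, 1.61, 1.27 and 1.08 in DNCB, 2.46, 1.41 and 1.90 in scMSC and 1.12, 0.550 and 0.950 in scivMSC. In both genes the DNCB libraries lay below the Solvent libraries, with a log2 fold change of -1.75 ± 0.51 (SE) and an adjusted p of 0.0199 for Cd4 and a log2 fold change of -1.78 ± 0.38 (SE) and an adjusted p of 0.00299 for Cd8a. Cd8b1, the partner chain of Cd8a, fell alike (log2 fold change -1.58).

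The ratio of Cd4 to Cd8a did not separate the groups. It averaged 1.70 ± 0.14 (SD, n = 3) in Solvent, 1.71 ± 0.53 in DNCB, 2.29 ± 0.12 in scMSC and 1.68 ± 0.85 in scivMSC. Over all 369600 ways of dividing the 12 libraries into the 4 groups, an exact permutation test on the log2 ratio gave p = 0.466 (0.611 after Benjamini-Hochberg adjustment over 10 ratios). The 3 scMSC values, between 2.17 and 2.41, lay above every Solvent value, and the wide spread in scivMSC, from 0.883 to 2.58, enters the same test.

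The costimulatory receptors differed in how far they moved. Cd28, whose signal a naive T cell needs beside that of its receptor, stood at 2.68, 2.25 and 1.97 FPKM in Solvent, 0.709, 0.776 and 0.377 in DNCB, 1.46, 1.14 and 1.15 in scMSC and 0.667, 0.154 and 0.435 in scivMSC. It had the largest fall of the 30 genes in DNCB, with a log2 fold change of -1.88 ± 0.46 (SE) and an adjusted p of 0.00721. Cd27, a costimulator of the TNF receptor family, fell by less (log2 fold change -1.55). Icos, which rises on activated and follicular helper T cells, stood at 1.20, 0.889 and 0.719 FPKM in Solvent, 0.509, 0.668 and 0.408 in DNCB, 1.06, 0.937 and 1.03 in scMSC and 0.390, 0.196 and 0.662 in scivMSC, and Ctla4, the inhibitory receptor that competes with Cd28, at 0.102 to 0.651 FPKM over all libraries. Icos was lower in every DNCB library than in any Solvent library but was not called (log2 fold change -0.81, adjusted p = 0.244), and it was the 1 gene of the 30 that missed the threshold in edgeR's test over all 4 groups (adjusted p = 0.0566), which 72.3% of tested genes passed.

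Of the 6 other surface proteins, 3 were called lower in DNCB on library totals. Cd5, a receptor that damps antigen receptor signalling, stood at 3.96, 2.22 and 2.39 FPKM in Solvent, 1.19, 1.13 and 0.612 in DNCB, 1.90, 1.38 and 1.47 in scMSC and 0.760, 0.190 and 0.650 in scivMSC, and its fall in DNCB had a log2 fold change of -1.54 ± 0.46 (SE) and an adjusted p of 0.0244. Cd2, an adhesion receptor (log2 fold change -1.60), and Ms4a4b, a membrane protein of resting T cells (log2 fold change -1.61), were called lower as well. Cd6, Cd96 and Thy1 had log2 fold changes of -1.13, -1.57 and -0.89 and were not called on library totals, though all 3 were under TMM. Ms4a4b belongs to a family of close copies, so its counts carry that uncertainty.

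Both cytokine receptor chains were lower in DNCB. Il7r, the receptor chain through which IL-7 keeps naive and memory T cells alive, stood at 8.28, 6.62 and 6.36 FPKM in Solvent, 3.08, 4.26 and 2.52 in DNCB, 7.61, 3.99 and 7.46 in scMSC and 2.67, 1.10 and 1.83 in scivMSC. Its fall had a log2 fold change of -1.10 ± 0.36 (SE) and an adjusted p of 0.0392. Il2rb, a chain shared by the IL-2 and IL-15 receptors and present on NK cells too, stood at 5.66, 6.00 and 4.36 FPKM in Solvent, 2.15, 2.47 and 2.09 in DNCB, 4.35, 2.52 and 2.38 in scMSC and 1.89, 1.05 and 1.14 in scivMSC, with a log2 fold change of -1.25 ± 0.34 (SE) and an adjusted p of 0.0143. Gzma, a granzyme of NK and cytotoxic T cells, was likewise lower in DNCB, at 5.90 to 8.71 FPKM against 17.9 to 21.4 in Solvent, and the part of NK cells in the Il2rb result was not tested.

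Of the signalling genes, Lck stood at 20.8, 12.8 and 13.8 FPKM in Solvent, 6.99, 7.06 and 5.38 in DNCB, 10.1, 7.78 and 9.54 in scMSC and 4.71, 1.70 and 3.14 in scivMSC. Zap70 stood at 4.52, 2.69 and 2.95 FPKM in Solvent, 1.55, 1.40 and 1.09 in DNCB, 2.33, 2.33 and 2.34 in scMSC and 1.40, 0.466 and 0.961 in scivMSC. Both fell in DNCB, Lck with a log2 fold change of -1.28 ± 0.35 (SE) and an adjusted p of 0.015 and Zap70 with a log2 fold change of -1.33 ± 0.41 (SE) and an adjusted p of 0.0269. Skap1, an adaptor that links the receptor to integrins, was called too (log2 fold change -1.71). Only its Solvent libraries reached 1 FPKM, so the filter favoured its fall. Themis, Ubash3a and Sh2d1a, which respectively tune selection signals, damp receptor signals as a phosphatase and couple SLAM receptors, were too low for the main test, at 0.0352 to 0.731 FPKM, and in an unfiltered fit, where 1.26% of genes were called lower, Ubash3a was called (log2 fold change -1.69, SE 0.50, adjusted p = 0.0367) while Themis (log2 fold change -1.50, SE 0.46, adjusted p = 0.0513) and Sh2d1a (log2 fold change -1.92, SE 0.67, adjusted p = 0.104) were not. In an unfiltered fit with TMM, where 5.61% of genes were called lower, all 3 were called, at -1.69 for Themis (adjusted p = 8.47e-05), -2.05 for Sh2d1a (adjusted p = 0.00476) and -1.87 for Ubash3a.

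Lat was the exception among the signalling genes. It stood at 10.6, 7.13 and 8.71 FPKM in Solvent, 4.70, 5.38 and 4.83 in DNCB, 8.56, 6.76 and 7.90 in scMSC and 5.23, 5.30 and 4.24 in scivMSC. DNCB lay below Solvent with an adjusted p of 0.0456, but the log2 fold change of -0.82 was under the 2-fold limit, and DNCB and scivMSC overlapped. Lat is also made by platelets, and 8 platelet genes summed to 371 to 589 FPKM in Solvent, 586 to 795 in DNCB, 701 to 901 in scMSC and 720.2 to 837 in scivMSC. The ratio of Lat to Cd3e averaged 1.88 ± 0.33 (SD, n = 3), 3.56 ± 0.82, 3.20 ± 0.66 and 6.25 ± 1.35 in the same order of groups. The part of platelets in the Lat values was not tested.

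Transcription factors of naive T cells fell with the receptor. Tcf7, which encodes TCF-1, stood at 32.5, 19.4 and 15.8 FPKM in Solvent, 11.1, 10.2 and 6.11 in DNCB, 13.2, 9.51 and 13.6 in scMSC and 5.62, 2.29 and 4.05 in scivMSC, and its fall in DNCB had a log2 fold change of -1.30 ± 0.37 (SE) and an adjusted p of 0.0182. Its partner Lef1 had the second steepest fall of the 30 genes in DNCB, with a log2 fold change of -1.81 ± 0.37 (SE) and an adjusted p of 0.0022. Bcl11b, which holds cells in the T lineage, fell alike (log2 fold change -1.75). Ets1, which other lymphocytes also make, had a log2 fold change of -1.08 and was not called on library totals but was under TMM (log2 fold change -1.26, adjusted p = 0.0462), and its Solvent libraries spread from 4.80 to 11.1 FPKM.

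Satb1, a chromatin organiser of T cells, behaved unlike the other factors. It stood at 1.85, 1.22 and 1.32 FPKM in Solvent, 1.01, 1.50 and 0.927 in DNCB, 0.916, 0.709 and 0.910 in scMSC and 0.414, 0.148 and 0.186 in scivMSC. DNCB overlapped Solvent and was not called (log2 fold change -0.35, adjusted p = 0.559). Every scMSC library was below every DNCB library, as in 49.8% of all tested genes but in no other T cell gene. Under TMM its log2 fold change in scMSC against DNCB was 0.26, and it was not called. Satb1 overlaps 4 other annotated genes of the table. Its ratio to Cd3e averaged 0.308 ± 0.029 (SD, n = 3) in Solvent, 0.804 ± 0.192 in DNCB, 0.348 ± 0.064 in scMSC and 0.291 ± 0.085 in scivMSC.

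The factors of helper subsets were expressed at low levels. Foxp3, which defines regulatory T cells, stood at 1.35, 0.645 and 0.703 FPKM in Solvent, 0.401, 0.333 and 0.266 in DNCB, 0.474, 0.256 and 0.384 in scMSC and 0.162, 0.0788 and 0.297 in scivMSC. Gata3, the factor of T helper 2 cells that also acts in other T cells, stood at 0.700, 0.550 and 0.705 FPKM in Solvent, 0.365, 0.249 and 0.128 in DNCB, 0.621, 0.301 and 0.566 in scMSC and 0.286, 0.0169 and 0.241 in scivMSC, and the scivMSC 2 value rests on 4 counts, under the floor of 12 counts set for a detected gene. Foxp3 overlaps 4 other annotated genes. In the unfiltered edgeR fit the falls in DNCB were not called for Foxp3 (log2 fold change -1.43, SE 0.57, adjusted p = 0.186) or Gata3 (log2 fold change -1.39, SE 0.67, adjusted p = 0.334), although neither gene overlapped between DNCB and Solvent. With TMM the unfiltered fit called both lower, Foxp3 at -1.52 (adjusted p = 0.00806) and Gata3 at -1.58 (adjusted p = 0.0347). The ratio of Foxp3 to Cd4 averaged 0.114 ± 0.013 (SD, n = 3) in Solvent, 0.157 ± 0.049 in DNCB, 0.0840 ± 0.0045 in scMSC and 0.139 ± 0.074 in scivMSC, with p = 0.346 in the exact permutation test.

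**Figure D2:**
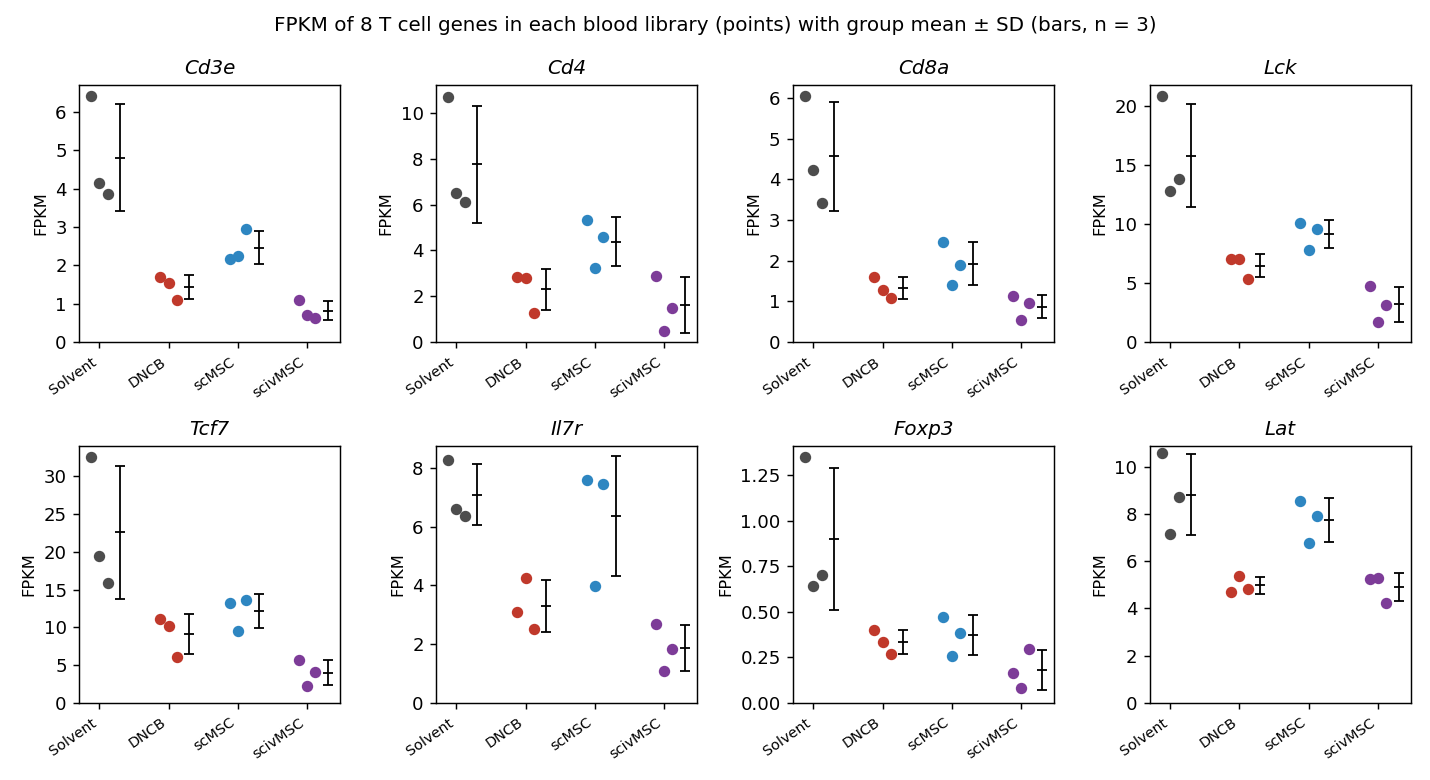
FPKM (linear axis from 0) of 8 T cell genes in each library, with the group mean ± SD beside the points (n = 3). Solvent is highest in all 8 panels by its mean, scMSC lies above DNCB in Cd3e, Cd4, Lck and Lat without overlap, and in Lat the scivMSC libraries overlap those of DNCB.

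A set of 10 ratios of paired genes addressed whether the T cell genes moved together. None passed the exact permutation test over the 4 groups, with raw p between 0.202 and 0.971 and adjusted p between 0.611 and 0.971. Lck to Cd3e averaged 3.30 ± 0.26 (SD, n = 3) in Solvent, 4.54 ± 0.38 in DNCB, 3.78 ± 0.76 in scMSC and 3.85 ± 1.33 in scivMSC. Tcf7 to Cd3e averaged 4.62 ± 0.49, 6.25 ± 0.59, 4.97 ± 0.96 and 4.88 ± 1.59 in the same order, and Il7r to Cd3e 1.51 ± 0.19, 2.29 ± 0.47, 2.60 ± 0.86 and 2.28 ± 0.68. In all 3 of these, every DNCB library was above every Solvent library, while the scMSC and scivMSC libraries overlapped DNCB. DNCB also lay above Solvent without overlap in Cd247 to Cd3e, Cd8b1 to Cd8a and Ctla4 to Cd4, and in no other of the 10 ratios. Ratios that share Cd3e as denominator are not separate observations. With 3 libraries a group, a ratio would need to move beyond these spreads to be seen, so the test does not show that the genes kept fixed proportions.

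**Figure D3:**
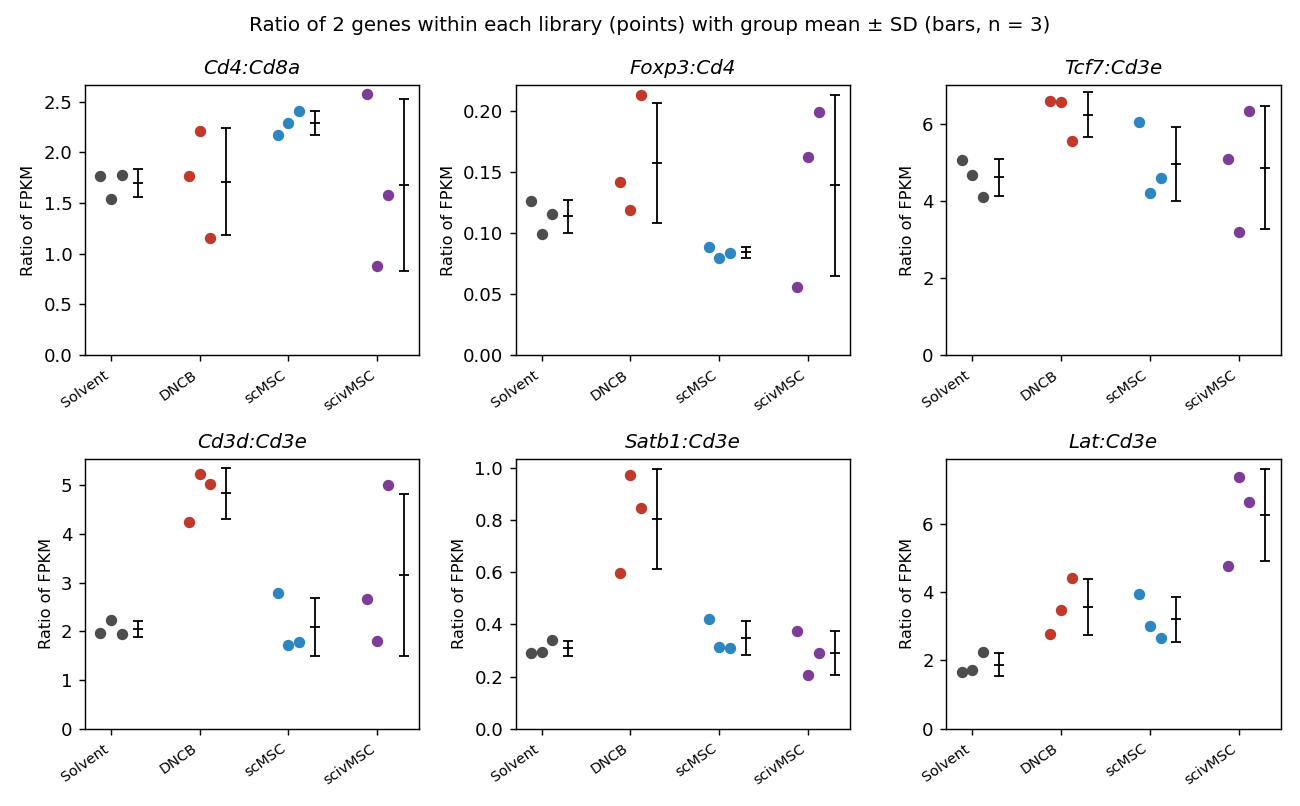
Ratios of FPKM of 2 genes within each library for 6 pairs, with the group mean ± SD beside the points (n = 3, linear axes from 0). Cd4:Cd8a, Foxp3:Cd4 and Tcf7:Cd3e belong to the tested ratios and did not separate the groups, and Cd3d:Cd3e and Satb1:Cd3e, which are described only, are higher in the DNCB libraries than in any Solvent or scMSC library.

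The comparison of scMSC with DNCB addresses what subcutaneous MSCs change in sensitised mice. The DNCB libraries are shared with the other DNCB comparisons. On library totals none of the 30 genes was called in either direction, against 1.27% of tested genes called higher and 24.9% called lower. The median log2 fold change was 0.49 over the 30 genes and -0.63 over all tested genes. By unadjusted p under 0.05 in edgeR, 4 were higher and none lower, and DESeq2 called 21 higher. No share of all tested genes is given for the unadjusted p or for DESeq2, so the 1.27% above is not their background. Under TMM 23 of the 30 were called higher and none lower, against 8.74% of tested genes called higher and 12.3% called lower, and with haemoglobin left out of the totals 8 were called higher (Bcl11b, Cd28, Cd3e, Cd4, Cd5, Icos, Il7r and Zap70), against 3.6%. FPKM in scMSC lay above DNCB without overlap in 14 of the 36 genes, against 5.54% of tested genes, and below it in 1 gene, Satb1, against 49.8%.

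Gene by gene, Cd28 had the largest rise in scMSC of the 30 tested genes. It had a log2 fold change of 0.99 ± 0.45 (SE) and an adjusted p of 0.109 on library totals. Under TMM it had a log2 fold change of 1.71 ± 0.27 (SE) and an adjusted p of 0.000514. Cd4 (log2 fold change 0.92, SE 0.50, adjusted p = 0.179) had a log2 fold change of 1.61 ± 0.32 (SE) and an adjusted p of 0.00194 under TMM. The values for Cd3e (log2 fold change 0.75, SE 0.34, adjusted p = 0.112), Zap70 (log2 fold change 0.78, SE 0.40, adjusted p = 0.161) and Il7r (log2 fold change 0.94, SE 0.36, adjusted p = 0.0644) were positive and short of the threshold on totals, and all 3 were called under TMM. Cd8a (log2 fold change 0.53), Lck (log2 fold change 0.48), Tcf7 (log2 fold change 0.39), Il2rb (log2 fold change 0.45) and Cd5 (log2 fold change 0.68) were likewise called under TMM only. Cd3d (log2 fold change -0.46 on totals and 0.22 under TMM) and Satb1 (-0.45 and 0.26) were called on neither scale and changed sign between the scales. Gata3 (log2 fold change 0.98, SE 0.67, adjusted p = 0.547) and Foxp3 (log2 fold change 0.15, SE 0.56, adjusted p = 1) were not called in the unfiltered fit. With TMM in that fit, where 2.97% of genes were called higher, Gata3 was called higher (log2 fold change 1.64, adjusted p = 0.0399), as were Themis (log2 fold change 1.78) and Ubash3a (log2 fold change 1.65), and Foxp3 was not (log2 fold change 0.80, adjusted p = 0.322). Neutrophil genes moved in the other direction in the same libraries, with a summed 576 to 718 FPKM in scMSC and all 10 called lower than in DNCB, and their part in the T cell values was not tested.

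Against Solvent, scMSC showed no called T cell gene in either direction on library totals, with 0.326% of tested genes called higher and the same percentage lower. By unadjusted p under 0.05 in edgeR, 18 of the 30 were lower and none higher, while DESeq2 called none. Under TMM none was called either, with 10 lower by unadjusted p and 4 by adjusted p, all 4 with changes under 2-fold. With haemoglobin left out of the totals, 2 genes, Cd8a and Skap1, were called lower. The median was -0.95 over the 30 genes and -0.59 over all tested genes. FPKM in scMSC lay below Solvent without overlap in 27 of the 36 genes, against 40.6% of tested genes. Cd3e (log2 fold change -0.97, SE 0.34, adjusted p = 0.112), Cd8a (log2 fold change -1.26, SE 0.38, adjusted p = 0.0953), Cd4 (log2 fold change -0.84, SE 0.49, adjusted p = 0.249) and Tcf7 (log2 fold change -0.91, SE 0.37, adjusted p = 0.137) were lower without passing. Cd28 (log2 fold change -0.89), Lck (log2 fold change -0.80), Zap70 (log2 fold change -0.55), Il2rb (log2 fold change -0.80) and Cd5 (log2 fold change -0.86) did not pass either. Il7r stood within the Solvent range in scMSC 1 and scMSC 3 and below it in scMSC 2, with a log2 fold change of -0.17 ± 0.36 (SE) and an adjusted p of 0.749. Under TMM Il7r (log2 fold change 0.33) and Zap70 (log2 fold change 0.02) turned positive, with neither called. Foxp3 (log2 fold change -1.28, SE 0.57, adjusted p = 0.308) and Gata3 (log2 fold change -0.40, SE 0.66, adjusted p = 0.793) were not called. Fitted on the Solvent and scMSC libraries alone, 12 genes were called lower, and leaving out scivMSC 2 or scivMSC 1 from the main fit brought the count to 12 and 10. No share of all tested genes is given for these fits, for DESeq2, for the other scalings or for the unadjusted p, so the 0.326% above is not their background.

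The comparison of scivMSC with DNCB asks the same of the combined route, and its outcome depended on the scale. On library totals 11 of the 30 genes were called lower and none higher, against 1.43% of tested genes called higher and 62% called lower, a smaller share than the background. The median was -0.89 over the 30 genes against -1.53 over all tested genes. Under TMM 3 genes were called higher (Icos, Lat and Zap70), against 20.6% of tested genes, and none lower, against 18.9%, and with haemoglobin left out 1 gene, Satb1, was called lower, against 46.5%. On library totals FPKM in scivMSC lay below DNCB without overlap in 16 of the 36 genes, against 67.9% of tested genes. No gene was called under all 3 scalings. The count on totals moved between 4 without scivMSC 2 and 26 without scivMSC 1, with 5 without DNCB 1 and 6 without DNCB 2. For these fits the share of all tested genes is not given, so the 62% is not their background.

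Satb1 had the largest fall in scivMSC against DNCB (log2 fold change -2.19, SE 0.39, adjusted p = 0.000168), and was the 1 gene negative on all 3 scales, at -1.67 without haemoglobin and -0.66 under TMM. Trbc1 came next (log2 fold change -1.52, SE 0.40, adjusted p = 0.00323), with 0.06 under TMM. Tcf7 (log2 fold change -1.20, SE 0.37, adjusted p = 0.00937) and Lck (log2 fold change -1.03, SE 0.35, adjusted p = 0.0167) were called on totals and were at 0.36 and 0.50 under TMM. Cd3e had an adjusted p under the threshold but a change under 2-fold (log2 fold change -0.82, SE 0.35, adjusted p = 0.0451). Cd4 (log2 fold change -0.50), Cd8a (log2 fold change -0.60), Cd28 (log2 fold change -0.57), Zap70 (log2 fold change -0.52), Il7r (log2 fold change -0.82), Il2rb (log2 fold change -0.72) and Cd5 (log2 fold change -0.87) were not called on totals. Under TMM all of these 7 genes and Cd3e turned positive, at 0.80 for Cd3e, 0.94 for Cd4, 0.97 for Cd8a, 0.93 for Cd28, 1.00 for Zap70, 0.76 for Il7r, 0.88 for Il2rb and 0.65 for Cd5, with Zap70 alone of the 8 called. Lat was level on totals (-0.02) and higher under TMM (log2 fold change 1.69, SE 0.27, adjusted p = 0.000151). Foxp3 (log2 fold change -0.88, SE 0.57, adjusted p = 0.291) and Gata3 (log2 fold change -0.45, SE 0.67, adjusted p = 0.723) were not called in the unfiltered fit, and with TMM in that fit both turned positive, at 0.72 and 0.98, and were not called.

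Between the MSC routes, scivMSC had lower T cell gene levels than scMSC on library totals. Of the 30 genes 28 were called lower and none higher, against 30.4% of tested genes called lower and 0.344% called higher, and the exceptions were Ets1 and Lat. The median was -1.45 over the 30 genes and -0.87 over all tested genes. FPKM did not overlap in 32 of the 36 genes, against 46.7% of tested genes, with Ctla4, Sh2d1a, Foxp3 and Ets1 overlapping. With haemoglobin left out of the totals 25 were called lower, against 30% of tested genes. Under TMM none was called by edgeR, against 4.92% of tested genes called lower, with a median of -0.62 and 29 of the 30 genes below 0. There 17 genes were lower by unadjusted p under 0.05 and 12 by adjusted p, all with changes under 2-fold, DESeq2 called none, and neither did an edgeR fit on these 6 libraries alone. Leaving out scMSC 1, scMSC 3, scivMSC 2 or scivMSC 3 brought the count to 10, 14, 15 and 15. The share of all tested genes called in those fits is not given, so the 30.4% is not their background.

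Of the 30 tested genes, the steepest falls between the routes were in Bcl11b (log2 fold change -1.80, SE 0.42, adjusted p = 0.0112) and Il7r (log2 fold change -1.76, SE 0.37, adjusted p = 0.00991), at -0.92 and -0.86 under TMM. Tcf7 (log2 fold change -1.59, SE 0.37, adjusted p = 0.0114), Cd3e (log2 fold change -1.58, SE 0.35, adjusted p = 0.0108), Cd28 (log2 fold change -1.56, SE 0.46, adjusted p = 0.0217), Cd5 (log2 fold change -1.55, SE 0.47, adjusted p = 0.0235) and Lck (log2 fold change -1.51, SE 0.35, adjusted p = 0.0114) were called lower too. Cd4 (log2 fold change -1.42, SE 0.50, adjusted p = 0.0409), Zap70 (log2 fold change -1.29, SE 0.41, adjusted p = 0.0277), Il2rb (log2 fold change -1.17, SE 0.34, adjusted p = 0.0218) and Cd8a (log2 fold change -1.12, SE 0.38, adjusted p = 0.034) were called lower as well. Among the low genes, Themis (log2 fold change -1.94, SE 0.47, adjusted p = 0.00932) and Ubash3a (log2 fold change -1.84, SE 0.51, adjusted p = 0.0182) were called lower in the unfiltered fit, as 8.68% of genes were, and Gata3 (log2 fold change -1.43, SE 0.68, adjusted p = 0.197) and Foxp3 (log2 fold change -1.03, SE 0.57, adjusted p = 0.29) were not. With TMM in that fit, where 2.28% of genes were called lower, Themis (log2 fold change -1.03) and Ubash3a (log2 fold change -1.06) were called too. B cell genes moved the same way in these libraries, 8 of them summing to 15.0 to 21.5 FPKM in scMSC and 4.27 to 8.59 in scivMSC, and the platelet genes did not, with none of 8 called.

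Against Solvent, scivMSC had every one of the 36 genes lower without overlap in FPKM, as 62.6% of tested genes were. Of the 30 tested, 29 were called lower, all but Lat, against 59.2% of tested genes called lower and 2.59% called higher, and the median was -2.40 against -1.47. The largest falls of these 30 were in Cd96, a receptor of T and NK cells (log2 fold change -2.93, SE 0.64, adjusted p = 0.00106), whose scivMSC 2 value rests on 7 counts, and Bcl11b (log2 fold change -2.83, SE 0.43, adjusted p = 0.000165). Cd3e (log2 fold change -2.55, SE 0.36, adjusted p = 0.000145), Tcf7 (log2 fold change -2.50, SE 0.39, adjusted p = 0.00017), Cd28 (log2 fold change -2.45, SE 0.47, adjusted p = 0.000476) and Cd5 (log2 fold change -2.41, SE 0.48, adjusted p = 0.000583) were called lower, and so were Il2rb (log2 fold change -1.97, SE 0.35, adjusted p = 0.000299), Il7r (log2 fold change -1.92, SE 0.37, adjusted p = 0.000522) and Zap70 (log2 fold change -1.84, SE 0.41, adjusted p = 0.0013). Cd8a (log2 fold change -2.38), Lck (log2 fold change -2.31) and Cd4 (log2 fold change -2.26) were called as well. In the unfiltered fit Foxp3 (log2 fold change -2.31, SE 0.59, adjusted p = 0.00226) and Gata3 (log2 fold change -1.83, SE 0.68, adjusted p = 0.0371) were called lower, as 28.2% of genes were. With TMM in that fit, where 7.51% of genes were called lower, neither was, at -0.80 for Foxp3 and -0.60 for Gata3. Under TMM 16 genes were called lower, against 13.4% of tested genes, and all 16 were among the 29. Those 16 held Cd3e, Cd3g, Cd247, Trbc1, Cd28, Tcf7, Lef1 and Bcl11b, and left out Cd4, Cd8a, Lck, Zap70, Il7r and Il2rb, while Icos (0.31) and Lat (0.72) turned positive there without being called.

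**Figure D4:**
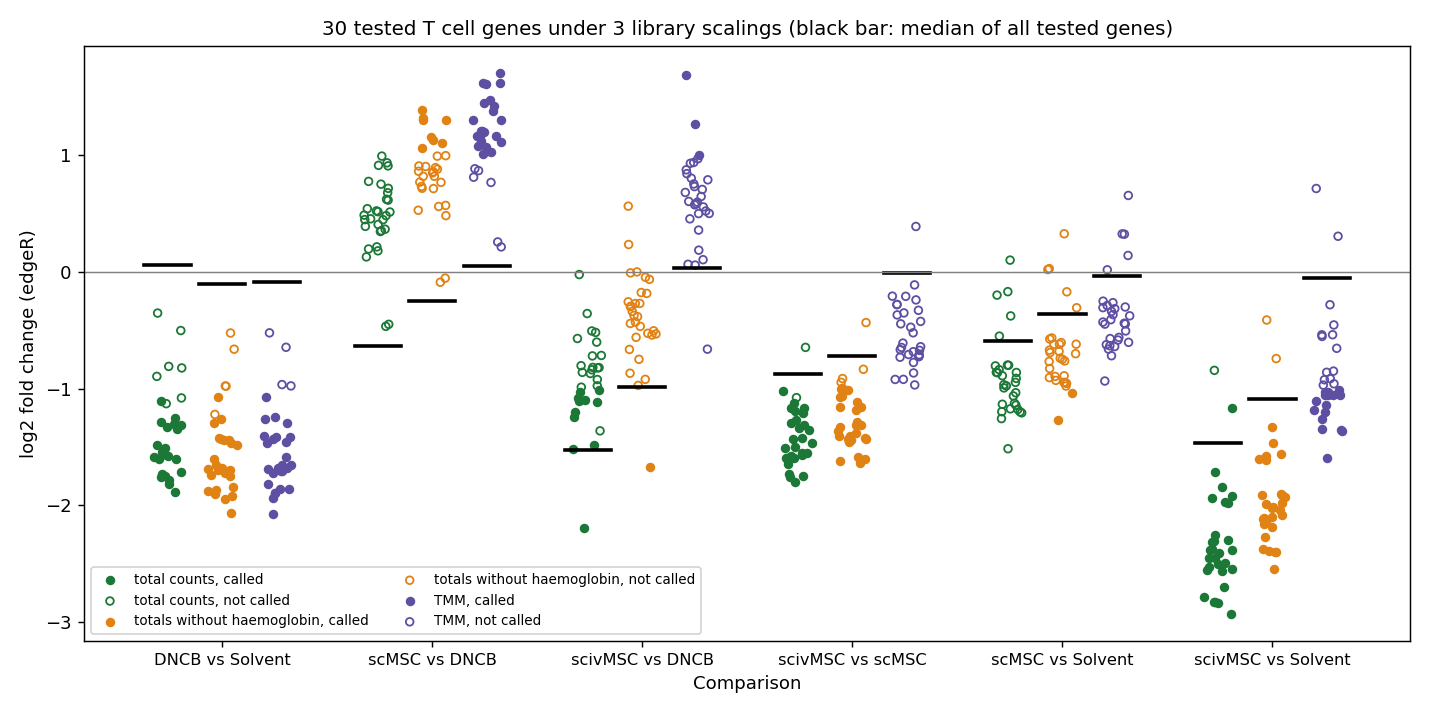
Log2 fold change from edgeR of each of the 30 tested T cell genes (points, filled when called) in the 6 comparisons under 3 library scalings, with the median of all tested genes as a black bar. DNCB against Solvent keeps 22 calls under every scaling, scMSC against DNCB has 0, 8 and 23 calls, and scivMSC against scMSC has 28, 25 and 0.

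A single gene of the gamma delta receptor, Trdc, gave a contrast with the alpha beta receptor. Of 5 gamma delta markers 2 had a row and 1, Trdc, was tested, and the gamma chain constant genes had no row. Trdc, the constant region of the delta chain, is no member of the 36 and stood at 8.21, 5.70 and 5.15 FPKM in Solvent, 5.37, 6.08 and 4.84 in DNCB, 8.64, 8.88 and 10.4 in scMSC and 8.91, 6.96 and 7.12 in scivMSC. It was not called in any comparison on library totals (log2 fold change -0.22 in DNCB against Solvent and 0.27 in scivMSC against Solvent). Under TMM it was called higher in scMSC and scivMSC, with 1.46 and 2.16 against DNCB and 1.10 and 1.80 against Solvent. The ratio of Trdc to Trac averaged 0.396 ± 0.040 (SD, n = 3) in Solvent, 1.00 ± 0.16 in DNCB, 1.29 ± 0.15 in scMSC and 2.79 ± 1.16 in scivMSC, and the Solvent values were below all others, which is described here without a test.

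Further genes of the receptor pathway were called in both directions. Of 39 further genes of antigen receptor signalling with a row, 30 were tested. In DNCB against Solvent 9 were called lower, against 4.87% of all tested genes, and 5 higher, against 15.6%. Under TMM 12 were called lower, against 11.5%, and 4 higher, against 16.1%. Pag1, an adaptor that recruits the inhibitory kinase Csk and is found in many leukocytes, stood at 1.97, 1.60 and 1.17 FPKM in Solvent, 4.50, 8.06 and 5.28 in DNCB, 1.63, 1.67 and 1.48 in scMSC and 0.727, 0.115 and 0.411 in scivMSC and rose (log2 fold change 1.92, SE 0.47, adjusted p = 0.00759). Genes called lower included Fyn, Grap2, Plcg1, Rasgrp1, Dgka, Carmil2 and Cd226, and the others called higher were Grb2, Bcl10, Sla and Slfn1. In scivMSC against scMSC 19 were called lower, against 30.4% of all tested genes, and none higher, and under TMM 5 were, against 4.92%. The largest of the falls, called on both scales, were in Trat1, a receptor-associated adaptor (log2 fold change -2.30, SE 0.50, adjusted p = 0.0104), and Plcg1, the phospholipase that Lat docks (log2 fold change -2.19, SE 0.46, adjusted p = 0.00933).

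Among 12 genes of naive and recirculating T cells, 11 were tested. In DNCB against Solvent 4 were called lower, against 4.87% of tested genes, and 1 higher, against 15.6%. Under TMM 7 were called lower, against 11.5%, and 1 higher, against 16.1%. Ccr7, the receptor that guides naive T cells into lymph nodes, stood at 24.0, 16.2 and 12.3 FPKM in Solvent, 5.61, 6.22 and 3.62 in DNCB, 6.29, 4.70 and 6.63 in scMSC and 3.46, 1.77 and 1.91 in scivMSC and fell (log2 fold change -1.76, SE 0.37, adjusted p = 0.00256), as did S1pr1, through which they leave (log2 fold change -1.72, SE 0.41, adjusted p = 0.00588). In scivMSC against scMSC 9 of the 11 were called lower on library totals, against 30.4% of tested genes, and none under TMM, against 4.92%. On totals Rapgef6 (log2 fold change -1.93, SE 0.67, adjusted p = 0.0382) and Dapl1 (log2 fold change -1.78, SE 0.60, adjusted p = 0.0348) fell by the most among those without overlap.

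Of 28 genes of helper and effector function, 26 had a row and only 7 were tested, so cytokines and most subset markers were below the filter. In DNCB against Solvent Cd40lg, the helper signal to B cells, fell (log2 fold change -2.24, SE 0.78, adjusted p = 0.0498), from 1.24 to 2.85 FPKM in Solvent to 0.284 to 0.535 in DNCB. Cd40lg would not have entered the test without the Solvent libraries, where its mean was highest, so the filter favoured its fall. Cxcr5, Trat1 and Rapgef6 would not have entered without the Solvent libraries either. Bcl6, the factor of follicular helper T cells that neutrophils and other cells also express, rose (log2 fold change 2.39, SE 0.58, adjusted p = 0.00677), and so did the adhesion receptor Cd44. In scivMSC against scMSC 4 of the 7 were called lower on library totals, against 30.4% of tested genes, and 2 under TMM, against 4.92%. Largest on totals were Cd40lg (log2 fold change -2.54, SE 0.81, adjusted p = 0.0286), listed at 0 in scivMSC 2, and Cxcr5, a receptor of follicular helper T cells and B cells (log2 fold change -2.09, SE 0.53, adjusted p = 0.0138), both called under TMM too.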

How the data were processed

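RNA of blood from 12 libraries was sequenced by the authors, and the deposited table gives, for each library, estimated counts per gene and FPKM. The authors' processing notes name HISAT2 2.0, StringTie 1.3.0, Bowtie 0.12.2 and the genome build mm8, without their roles. Among low counts, multiples of 4 are the most frequent values, so 1 fragment appears to be worth about 4 counts, and 12 counts (3 fragments) were taken as the floor of detection. Libraries held 52179764 to 65139421 counts.

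Groups were taken from the sample labels. Counts were rounded, scaled by library totals and tested with edgeR 4.0.16 (R 4.3.3), quasi-likelihood, with the 4 group means in 1 fit of the 12 libraries, over the 5527 of 25247 genes with at least 1 FPKM in at least 3 libraries. Genes were called at a Benjamini-Hochberg adjusted p under 0.05 and a fold change over 2, and all 6 pairs of groups were compared. The low T cell genes were read from an edgeR fit without this filter. The 10 ratios were tested by exact permutation of the log2 ratios, with the F statistic over the 4 groups. The test scripts were checked on simulated counts.

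All 36 genes are named. Full statistics are given for 12 core genes, those with the largest change among called genes in each comparison, and 2 called genes per pathway list without overlap. The 36 genes, the pathway and marker lists, and the tests were chosen with earlier results of these data known. Lat, Cd3d, Satb1, Icos and Trdc ratios were described after their values were seen. Alternatives were TMM, totals without 10 haemoglobin genes, DESeq2 1.42.0, limma 3.58.1 on log2(FPKM + 1) and log2(FPKM + 0.1), no filter, a mean FPKM of at least 5, a replicate block, the compared groups alone and leaving out each library. The unfiltered TMM fit was added after seeing the data. Some genes of the pathway lists count in their totals and are not reported here by name. Gene sequences were not used here.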

Additional observations from a re-analysis of the deposited data

Results flagged for a closer look

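The combined route and the subcutaneous route were set against the same DNCB libraries. On library totals, edgeR's test of scivMSC against scMSC passed for 28 of the 30 tested T cell genes, all lower in scivMSC. Of all tested genes 30.4% were called lower there, and their median log2 fold change was -0.87. The 28 genes are listed here because of that test. With haemoglobin left out of the totals 25 were called lower, against 30% of tested genes. TMM scaling, DESeq2 and a fit of the 6 libraries alone called none. For the antigen receptor and CD3 complex, log2 fold changes were -1.21 for Trac, -1.65 for Trbc1, -1.19 for Trbc2, -1.02 for Cd3d, -1.58 for Cd3e, -1.50 for Cd3g and -1.59 for Cd247. For coreceptors and costimulatory receptors they were -1.42 for Cd4, -1.12 for Cd8a, -1.16 for Cd8b1, -1.56 for Cd28, -1.27 for Icos and -1.36 for Cd27. The other surface proteins were at -1.55 for Cd2, -1.55 for Cd5, -1.43 for Cd6, -1.33 for Thy1, -1.73 for Cd96 and -1.46 for Ms4a4b. Cytokine receptor chains were at -1.76 for Il7r and -1.17 for Il2rb. Signalling genes were at -1.51 for Lck, -1.29 for Zap70 and -1.31 for Skap1. Transcription factors were at -1.59 for Tcf7, -1.59 for Lef1, -1.80 for Bcl11b and -1.75 for Satb1. Adjusted p-values ran from 0.00991 to 0.0494 in edgeR. Without scMSC 1 the count was 10, without scMSC 3 it was 14, and without scivMSC 2 or scivMSC 3 it was 15, with no share of all tested genes given for these fits.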

How the results depend on the processing

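Of 66 results for named T cell genes, recomputed to 1333 values, 1147 kept direction and side of the threshold, 120 lost it, 37 gained it and 29 changed sign. In scivMSC against DNCB the log2 fold changes were positive under TMM and DESeq2, respectively, for Cd3e (0.80 and 0.80), Cd4 (0.94 and 0.92), Cd8a (0.97 and 0.96), Cd28 (0.93 and 0.92), Lck (0.50 and 0.49), Zap70 (1.00 and 0.99), Tcf7 (0.36 and 0.35), Il7r (0.76 and 0.75), Il2rb (0.88 and 0.87), Cd5 (0.65 and 0.63) and Trbc1 (0.0604 and 0.0432), and Zap70 was at 0.0019 without haemoglobin. In scMSC against Solvent Zap70 was at 0.0197 under TMM and 0.0132 in DESeq2, and Il7r at 0.33 under TMM, 0.0299 without haemoglobin, 0.32 in DESeq2 and between -0.32 and 0.0782 without 1 scMSC library, highest without scMSC 2. The cause was not tested.

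Counts of called T cell genes moved as follows, and the share of all tested genes in each setting is not given beside them. For scMSC against DNCB they were 23 under TMM, 8 without haemoglobin, 21 in DESeq2 and 26 under TMM unfiltered. For scivMSC against DNCB they were 3, 1, 2 and 2, with 3 in limma on log2(FPKM + 1) and 4 in the compared groups alone. For scivMSC against scMSC they were 0 under TMM, in DESeq2 and in the groups alone, 10 in that limma fit and 2 under TMM unfiltered. For scMSC against Solvent they were 2 without haemoglobin, 3 in that limma fit and 12 in the groups alone. For scivMSC against Solvent they were 16 under TMM, 14 in DESeq2 and 18 under TMM unfiltered. With a mean FPKM of at least 5, which tests only 9 of the genes, the counts were 6 for DNCB against Solvent, 5 for scivMSC against DNCB, 7 for scivMSC against scMSC, 8 for scivMSC against Solvent and 9 over the 4 groups.

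Leaving out each library gave 11 to 25 for DNCB against Solvent, 0 to 1 for scMSC against DNCB, 4 to 26 for scivMSC against DNCB, 10 to 29 for scivMSC against scMSC, 0 to 12 for scMSC against Solvent, 28 to 29 for scivMSC against Solvent and 28 to 29 over the 4 groups. The share of all tested genes is not given for these fits or for the replicate block below. The exact permutation p of the ratios ranged from 0.0945 to 0.686 for Cd4:Cd8a, 0.00662 to 0.759 for Ctla4:Cd4 and 0.0111 to 0.57 for Foxp3:Cd4, the latter pair lowest without scivMSC 1. A replicate block gave 23, 0, 14, 28, 0 and 29 called genes in DNCB against Solvent, scMSC against DNCB, scivMSC against DNCB, scivMSC against scMSC, scMSC against Solvent and scivMSC against Solvent, and 29 over the 4 groups. Replicate numbers did not pair the libraries, since same-numbered libraries correlated between -0.286 and 0.156 and 5 of 12 correlated best with their own number.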
